A study of Mus musculus with 12 samples.

Results

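Postsynaptic scaffold and adhesion genes were followed as a set of 36 genes chosen by name, out of 54429 entries in the count tables. All 36 were found, and all 36 passed the filter on low counts in every comparison. The study sequenced total RNA of brain punches from C57BL/6 mice, with 12 libraries in 4 groups and 3 in each group. The groups were early isolated male BLA, group-housed male BLA, early isolated female VTA and group-housed female VTA. The labels give the region only by these letters, with cerebrum as the tissue, and give no ages, no length of isolation and no count of animals per punch. Region and sex change together and cannot be told apart. Whether each library stands for its own animal is not in the labels, and the p-values therefore describe library-to-library spread that may be technical.

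At an excitatory synapse the receptors of the receiving neuron are held in a dense layer of scaffold proteins under the membrane. MAGUK proteins (the Dlg genes) bind receptors and adhesion proteins, GKAP proteins (the Dlgap genes) link MAGUKs to SHANK proteins, and SHANKs bind HOMER, which holds metabotropic glutamate receptors. Neuroligins and LRRTM proteins reach across the cleft to neurexins on the sending side, and CaMKII, a calcium-activated kinase, is among the most abundant proteins of this layer in forebrain.

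Total counts ran from 28278708 to 69276892 per library, of which the 36 genes took 0.657% to 1.03% in BLA and 0.375% to 0.568% in VTA. The dopamine transporter gene Slc6a3 followed the labels of the regions, with 0.424 to 1.09 CPM in BLA, against 231 to 521 CPM in VTA. Some libraries stood apart. In isolated BLA library 3 and group-housed BLA libraries 1 and 2, loci that collect ribosomal RNA reads took 18.58%, 28.55% and 41.75% of counts, and in no other library more than 1.57%. In isolated VTA library 3, Slc17a7, a vesicular glutamate transporter of glutamatergic forebrain neurons, reached 264 CPM, against 26.9 and 9.6 CPM in isolated libraries 1 and 2 and at most 6.19 CPM in the group-housed ones. Ttr, a choroid plexus gene, read 231, 3.16 and 3530 CPM in the isolated VTA libraries, against 0.425, 0.303 and 1.06 CPM in the group-housed ones.

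The first comparison sets the BLA libraries against the VTA libraries. Of the 36 genes, 33 were higher in BLA and 2 were lower by edgeR's quasi-likelihood test (Benjamini-Hochberg adjusted p under 0.05 over all genes). The background was large: 47.7% of the 25009 genes tested were called, 23.7% higher and 24.1% lower in BLA. The median log2 fold change of the 36 genes, BLA over VTA, was 1.34, against -0.021 over all genes. In 31 of the 36 every BLA library lay above every VTA library, against 12.9% of all genes, and in 2 every BLA library lay below, against 14.1%. In punches, fewer cells of a type and less RNA per cell cannot be told apart.

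Levels of different genes were compared as CPM per kb of exon. Nrgn, which encodes neurogranin, a calmodulin-binding protein of dendrites, had the highest mean in BLA. It read 158, 174 and 189 CPM per kb in isolated BLA and 180, 233 and 173 in group-housed BLA. In VTA it read 16.5, 9.38 and 59.7 CPM per kb in the isolated libraries and 9.85, 9.27 and 6.1 in the group-housed ones. The regions did not overlap, although isolated VTA library 3 stood well above the other VTA libraries. The log2 fold change, BLA over VTA, was 3.58 with an SE of 0.45, and without that library it was 4.15.

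Camk2a, the alpha subunit of CaMKII, came next in BLA, at 114, 147 and 193 CPM per kb in isolated BLA and 163, 206 and 165 in group-housed BLA. The VTA libraries held 13.7, 13.7 and 53.4 CPM per kb under isolation and 12.5, 13.5 and 9.07 under group housing. Here too library 3 of isolated VTA was the highest VTA library and lay below every BLA library. The log2 fold change was 3.21 with an SE of 0.39.

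Agap2, a GTPase-activating protein of the PIKE family, followed in BLA with a mean of 122 CPM per kb. Camk2b, the beta subunit of CaMKII, had 86.9 CPM per kb in BLA and 36.9 in VTA, a log2 fold change of 1.24 (SE 0.07, edgeR adjusted p = 2.06e-08), the smallest p of the 36. In VTA the order was another. Camk2g led with 40.0 CPM per kb, then Camk2b with 36.9, Agap2 with 28.9, Camk2a with 19.3 and Nrgn with 18.5. The spread of Camk2a and Nrgn over the 6 VTA libraries (SD 16.8 and 20.5) was wider than the gap between them, so that their order in VTA is not resolved. Without isolated library 3, Camk2g, Camk2b and Agap2 still led, followed by Dlg3 with 15.3, Dlg4 with 14.4 and Dlg1 with 13.8 CPM per kb, while Camk2a averaged 12.5 and Nrgn 10.2 over the other 5 VTA libraries. Homer3 was the lowest of the 36 in both regions, with 0.966 ± 0.0942 CPM per kb in BLA and 1.25 ± 0.127 in VTA (SD, n = 6 each).

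**Figure D1:**
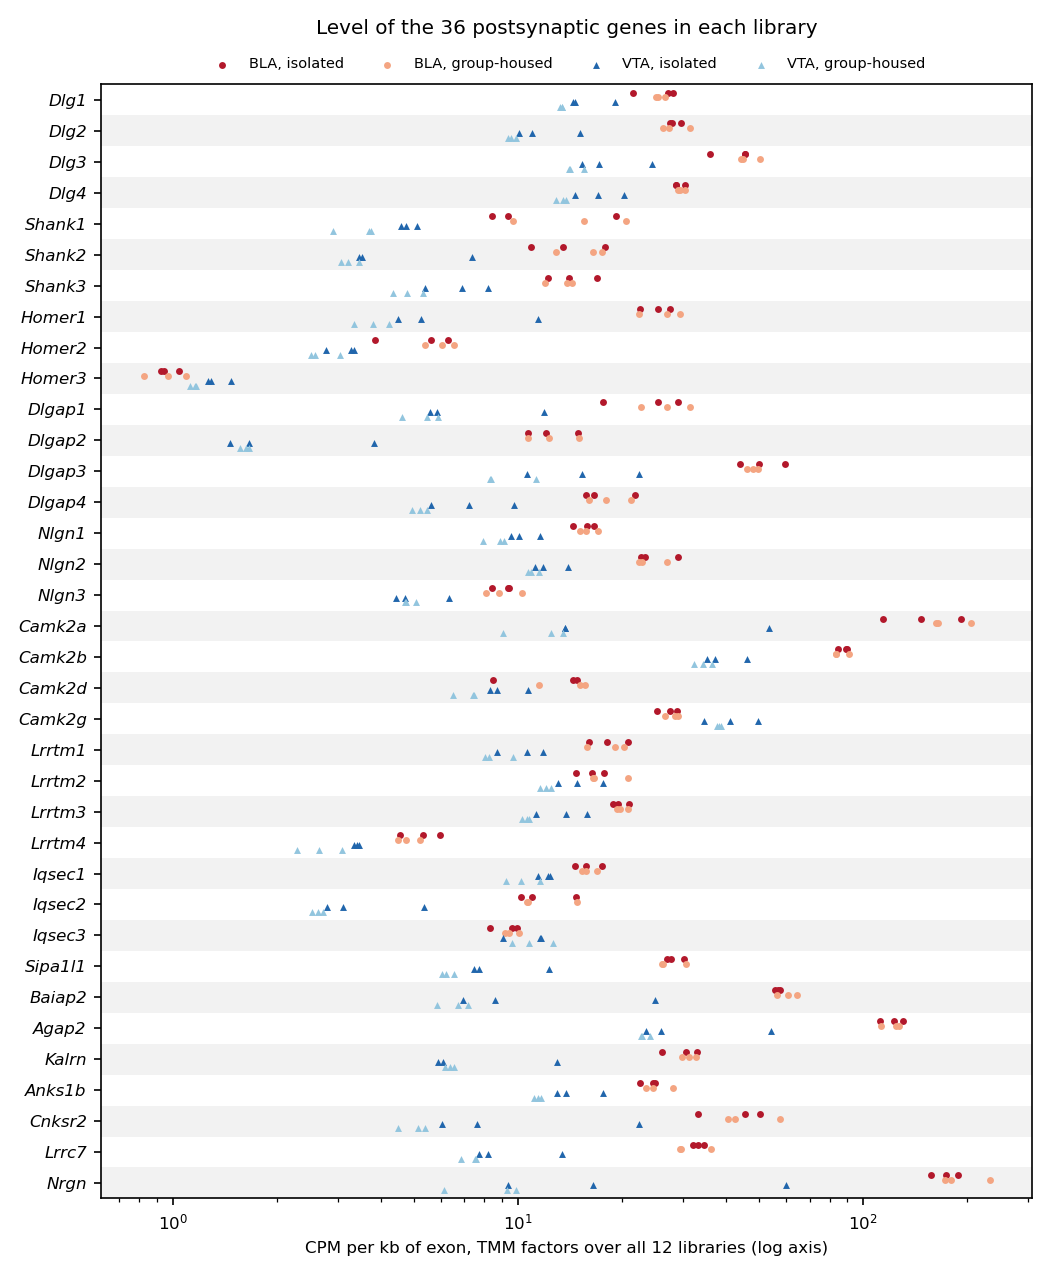
Level of each of the 36 genes in each of the 12 libraries, as CPM per kb of exon on a log axis; circles are BLA libraries and triangles VTA libraries, the darker colour isolated and the paler one group-housed. Nrgn and Camk2a lie farthest apart between regions, and Camk2g and Homer3 are lower in BLA.

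By role, all 4 MAGUK genes, all 3 SHANK genes and all 4 GKAP genes were called higher in BLA. Among the MAGUKs, Dlg3, which encodes SAP102, differed by 1.41 (SE 0.11, edgeR adjusted p = 1.52e-07) and Dlg2, which encodes PSD-93, by 1.40 (SE 0.09, adjusted p = 3.54e-08). Dlg4, which encodes PSD-95, differed by 0.95 (SE 0.07, adjusted p = 1.48e-07) and Dlg1, which encodes SAP97, by 0.81 (SE 0.08). The Dlg4 libraries were tight in BLA, between 28.7 and 30.4 CPM per kb, against 12.9 to 20.3 in VTA. Of the SHANKs, Shank3 differed by 1.28 (SE 0.11, edgeR adjusted p = 3.98e-07), Shank2 by 1.91 and Shank1 by 1.75. Without the 3 BLA libraries of high ribosomal RNA share, in which Shank1 was high, its value was 1.14. Library 3 was then the only group-housed BLA library left. The GKAP genes spanned 1.54 for Dlgap4 (SE 0.13, edgeR adjusted p = 1.25e-06) to 2.7 for Dlgap2.

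Among the adhesion genes, the 3 neuroligins ran from 0.74 for Nlgn1 (SE 0.07, edgeR adjusted p = 8.2e-07) to 1.08 for Nlgn2 (SE 0.08, adjusted p = 1.25e-07), the neuroligin of inhibitory synapses. The 4 LRRTM genes ran from 0.34 for Lrrtm2 to 0.96 for Lrrtm1 (SE 0.09, edgeR adjusted p = 1.14e-06). Lrrtm2 was among the 3 genes whose regions overlapped, with 14.7 to 20.9 CPM per kb in BLA and 11.6 to 17.6 in VTA. The others were Camk2d and Iqsec3. Without the 3 BLA libraries of high ribosomal RNA share, which left library 3 alone in group-housed BLA, the value of Lrrtm2 fell to 0.24. Of the exon length of Nlgn3, 41.24% is shared with another annotated gene on the same strand, and 25.1% of that of Lrrtm4 with a gene on the other strand, so their counts are uncertain.

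Among the regulators of actin and small GTPases, Baiap2, which encodes the actin-binding protein IRSp53, read 55.7 to 64.4 CPM per kb in BLA and 5.82 to 24.9 in VTA, a log2 difference of 2.64 (SE 0.3). Sipa1l1, which encodes the Rap regulator SPAR, differed by 1.89 (SE 0.11, edgeR adjusted p = 2.68e-08), and Kalrn, a gene of dendritic spines, by 2.08. Cnksr2, a scaffold of Ras signalling, differed by 2.53 and Lrrc7, which encodes densin-180, by 1.95 (SE 0.12, adjusted p = 7.14e-08). Anks1b, which encodes AIDA-1, differed by 0.93 (SE 0.08, edgeR adjusted p = 3.94e-07). Dlg3, Nlgn3, Iqsec2 and Cnksr2 lie on the X chromosome, and for them, as for the rest, region and sex cannot be told apart.

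Camk2g and Homer3 went the other way. Camk2g, the gamma subunit of CaMKII, lay between 25.3 and 29.2 CPM per kb in BLA and between 34.6 and 49.6 in VTA, a log2 fold change of -0.53 (SE 0.08, edgeR adjusted p = 5.54e-05). Homer3 differed by -0.36 (SE 0.12, adjusted p = 0.0228); the call was lost in the group-housed libraries alone (adjusted p = 0.287), without group-housed BLA library 3 (adjusted p = 0.0625) and without isolated VTA library 1 (adjusted p = 0.0581). About 25.41% of its exon length overlaps a gene on the other strand, and the strand setting of the counting is not given in the sources used here. Iqsec3, an Arf exchange factor of inhibitory synapses, read -0.21 with an edgeR adjusted p of 0.0539 and was not called. It was called without isolated VTA library 3 (-0.27, adjusted p = 0.00933) and without group-housed VTA library 1 (-0.25, adjusted p = 0.0272).

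**Figure D2:**
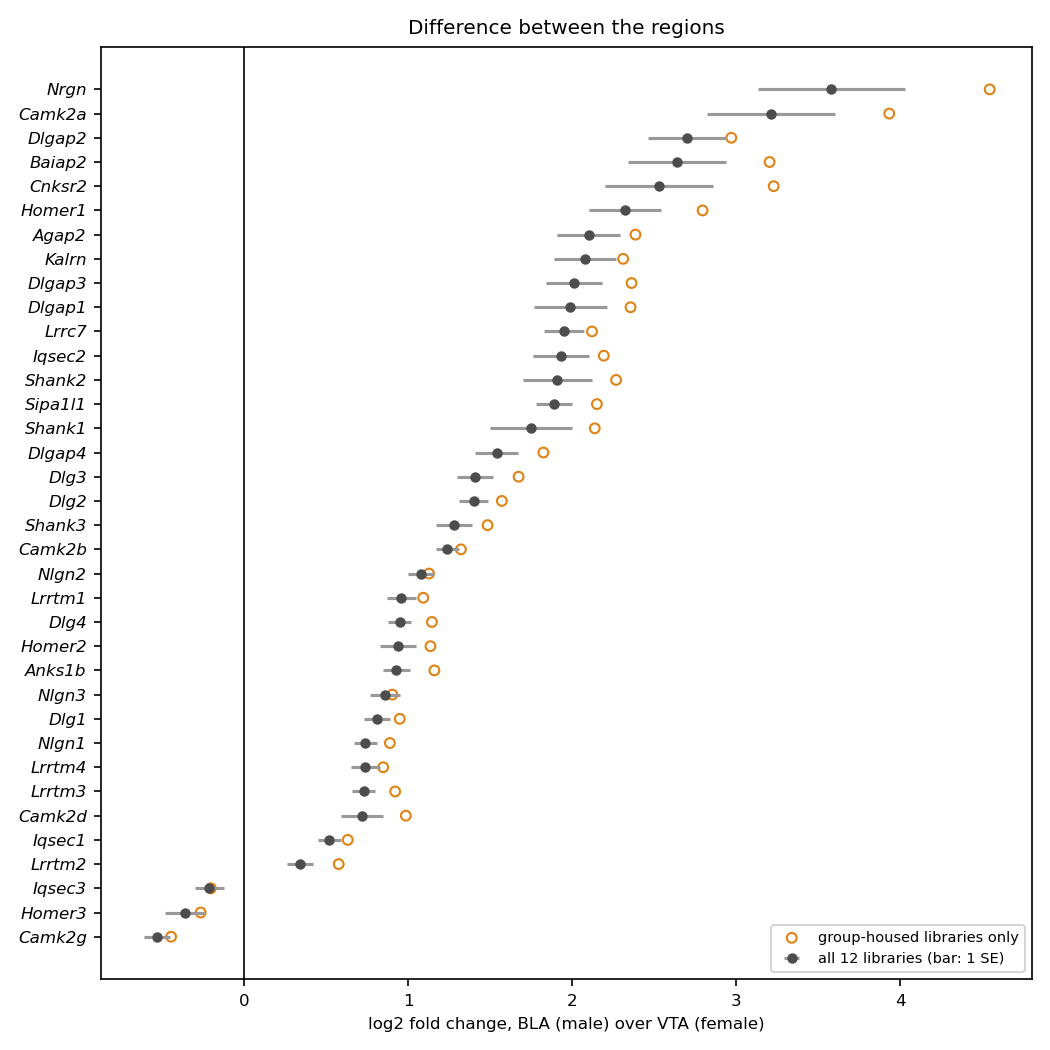
Log2 fold change of each gene, BLA over VTA: filled points with 1 SE are all 12 libraries, open points the 6 group-housed libraries alone. In both sets 33 of the 36 genes lie above 0, with medians of 1.34 and 1.53. The open points of Nrgn (4.54), Camk2a (3.93) and Cnksr2 (3.23) lie farthest from the filled ones. Of all genes tested on the 12 libraries, 48.5% lie above 0.

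Within families the mix of members differed between regions, described here with no test as shares of the family's counts per kb. Camk2a made up 55.8% ± 4.84 of the CaMKII family in BLA and 16.9% ± 9.89 in VTA (SD, n = 6 each), where isolated library 3 read 36.9%. Camk2g made up 9.54% in BLA and 39.5% ± 7.87 in VTA, with 23.9% in isolated library 3. Homer1 made up 79.6% of its family in BLA and 54.0% ± 9.07 in VTA, with 71.5% in that library. Iqsec2 made up 31.9% of the IQSEC family in BLA and 12.6% ± 3.75 in VTA, with 20.1% in that library. Iqsec3 made up 25.3% of it in BLA and 43.2% ± 4.72 in VTA, with 33.9% in that library. In each of these genes isolated library 3 was the VTA library nearest to BLA. Of the MAGUK family, Dlg3 made up 34.6% in BLA and 29.0% in VTA, Dlg1 20.1% in BLA and 25.6% in VTA, and Dlg4 23.1% in BLA and 26.7% in VTA.

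**Figure D3:**
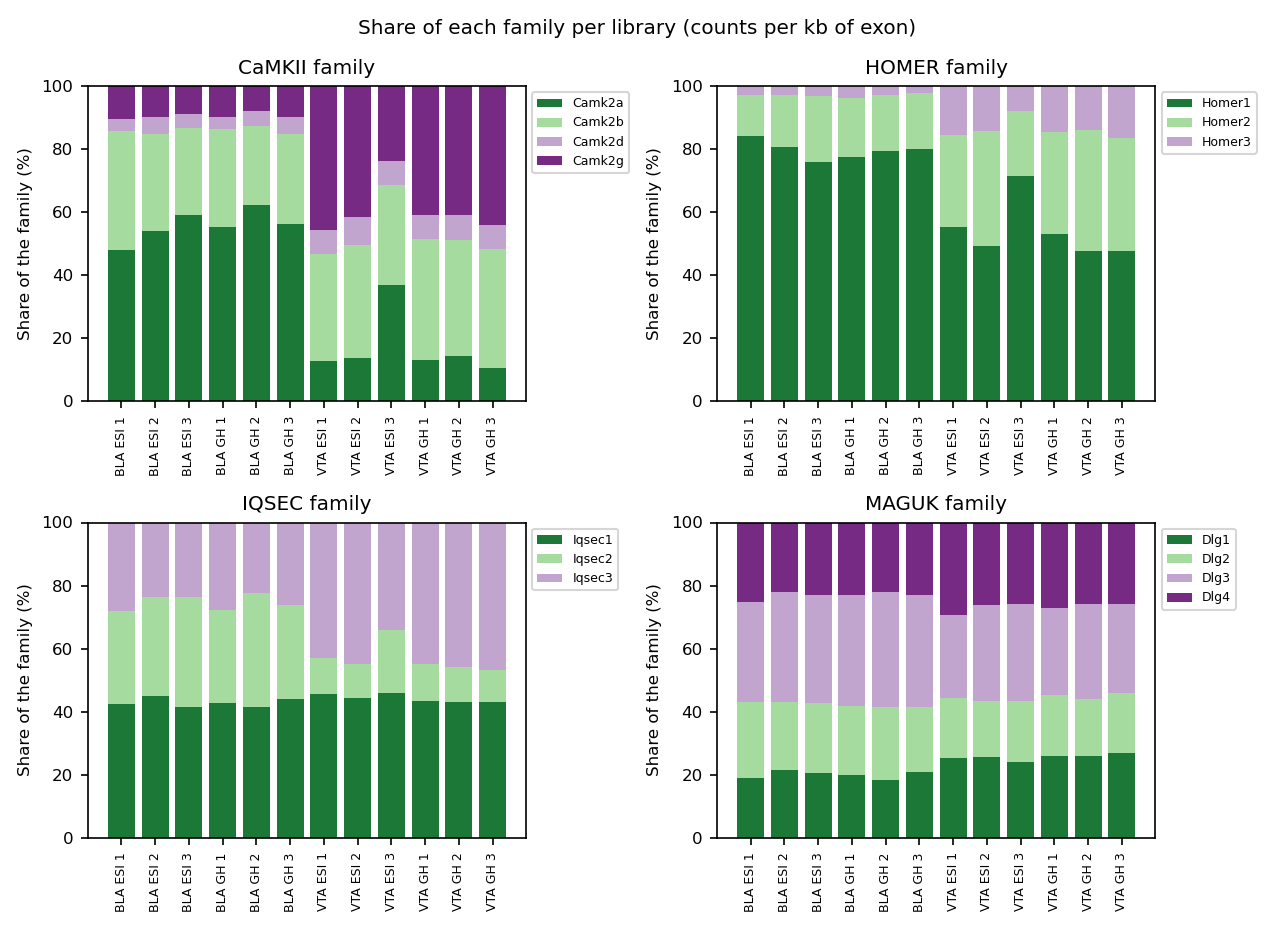
Share of each gene in its family, from counts per kb of exon, in the 12 libraries (ESI, isolated; GH, group-housed). Camk2a holds 48.1% to 62.3% of the CaMKII family in BLA and 10.6% to 36.9% in VTA, highest there in isolated library 3.

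Promoters of members with large and with reversed differences are shown so that both kinds can be read side by side. RefSeq promoter windows (GRCm38.p6, 250 bases before to 50 after a start) were matched for 29 of the 36 genes, 50 windows in all. The upstream 250 bases are printed 5′ to 3′ on the gene's strand. Capitals mark a GC box (GGGCGG, either strand) or a TATA box (TATAAA, either strand). Nrgn lies at chr9:37552746-37552995 on the minus strand, Baiap2 at chr11:119942842-119943091 on the plus strand, Homer1 at chr13:93303507-93303756 on the plus strand and Homer3 at chr8:70282749-70282998 on the plus strand.
Nrgn: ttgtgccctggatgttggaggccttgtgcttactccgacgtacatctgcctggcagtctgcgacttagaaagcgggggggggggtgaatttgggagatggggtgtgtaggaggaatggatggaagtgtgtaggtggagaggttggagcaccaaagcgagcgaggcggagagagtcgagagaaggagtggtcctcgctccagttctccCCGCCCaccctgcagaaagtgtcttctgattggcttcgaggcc
Baiap2: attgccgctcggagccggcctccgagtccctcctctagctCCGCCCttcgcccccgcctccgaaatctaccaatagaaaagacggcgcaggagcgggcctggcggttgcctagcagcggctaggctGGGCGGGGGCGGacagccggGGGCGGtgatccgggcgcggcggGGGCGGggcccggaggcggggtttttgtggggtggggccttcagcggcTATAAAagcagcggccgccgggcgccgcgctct
Homer1: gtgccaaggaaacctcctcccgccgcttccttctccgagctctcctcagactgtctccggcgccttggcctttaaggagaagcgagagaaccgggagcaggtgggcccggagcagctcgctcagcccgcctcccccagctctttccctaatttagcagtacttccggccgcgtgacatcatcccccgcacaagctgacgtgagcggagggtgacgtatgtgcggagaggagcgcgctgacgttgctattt
Homer3: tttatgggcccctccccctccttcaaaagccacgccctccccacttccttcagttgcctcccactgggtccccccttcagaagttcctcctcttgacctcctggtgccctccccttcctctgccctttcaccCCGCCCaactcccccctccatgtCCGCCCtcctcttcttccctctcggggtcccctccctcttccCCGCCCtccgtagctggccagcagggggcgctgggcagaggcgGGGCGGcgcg
The stretch of Baiap2 holds 5 GC boxes and 1 TATA box, that of Homer3 holds 4 GC boxes, that of Nrgn holds 1, and that of Homer1 holds 0 of either. A GC box stood in 50% of the members' windows and in 35.7% of all 32851 windows. The cAMP response element TGACGTCA stood in 0 of the 50 windows, against 1.79% of all windows. E-boxes (CANNTG) stood in 66.0% against 72.3%, and TATA boxes in 12% against 13.6%. The median GC content was 59.3% in the members' windows and 52.7% in all windows. A match describes letters in a window and says nothing of binding. The genes themselves are long: their median span was 103120 bp, against 12867 bp over all genes tested with an annotated span.

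Other genes of the synapse were set beside the 36. Of 68 further postsynaptic genes, 55 were called higher and 2 lower in BLA, with a median of 0.77. Adgrb1, an adhesion receptor, differed by 1.10 and Cttnbp2, a cortactin-binding protein of spines, by 1.52, while Ephb2, an ephrin receptor, differed by -1.23 (edgeR adjusted p = 2.78e-08). Of 13 presynaptic partners, 12 were called higher and 1 lower, with a median of 0.69. Of 8 other genes of the inhibitory postsynapse, 7 were called higher and 0 lower. Of 12 pan-neuronal genes, 6 were called higher and 1 lower, with a median of 0.27. The 12 markers of cortical and basolateral glutamatergic neurons had a median of 2.83, with 11 called higher, and the 10 myelin genes were all called lower. The 12 striatal projection markers had a median of 2.68, with 9 called higher and 0 lower. For the 10 dopamine neuron markers the median was -5.67, with 9 called lower and 1 higher. Their part in the differences of the 36 genes was not tested.

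The second comparison sets early isolated against group-housed females in VTA. None of the 36 genes was called by edgeR (0 of 36, against 0.00415% of the 24082 genes tested), and 12 of the 36 had an unadjusted p under 0.05, against 18.3% of all genes. The estimates leaned one way: 35 of 36 were above 0, against 49.8% of all genes, with a median of 0.32 against -0.001. In 17 of the 36, all isolated libraries lay above all group-housed libraries, against 12.6% of all genes. Without isolated library 3, a count added after seeing the data, it was 18 of 36, against 16.0% of all genes.

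Shank1, a SHANK scaffold of spines, had the smallest p. It read 54.3, 58.5 and 61.0 CPM in isolated VTA and 36.8, 47.0 and 46.2 CPM in group-housed VTA. The groups did not overlap, and the isolated libraries were close together. The log2 fold change was 0.42 (SE 0.11, edgeR adjusted p = 0.236). DESeq2 called it (0.43, adjusted p = 0.041), with 2.02% of all genes called.

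Shank3, a SHANK scaffold that binds GKAP and HOMER, read 71.6, 57.8 and 85.3 CPM in isolated VTA, against 47.8, 52.1 and 57.8 CPM in group-housed VTA. The lowest isolated library and the highest group-housed one were nearly equal. The log2 fold change was 0.44 (SE 0.14, edgeR adjusted p = 0.236). Without isolated library 2, edgeR called Shank3, Dlgap4 and Lrrtm3 (0.58 for Shank3, adjusted p = 0.0401), with 4.81% of all genes called. Without isolated libraries 1 and 3 the values were 0.14 for Shank3, 0.08 for Dlgap4 and 0.075 for Lrrtm3. Isolated library 2 was then the only one left in its group, so these values rest on it.

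Anks1b read 226, 220 and 292 CPM in isolated VTA and 192, 201 and 196 CPM in group-housed VTA, a log2 fold change of 0.32 (SE 0.11, edgeR adjusted p = 0.24). Camk2d, the delta subunit of CaMKII, read 211, 229 and 273 CPM in isolated VTA, against 199, 200 and 173 CPM in group-housed VTA, a log2 fold change of 0.31 (SE 0.11, adjusted p = 0.24). In both genes the groups were apart and isolated library 3 was the highest.

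The largest estimates rested in large part on that library. Nrgn read 27.0, 16.0 and 98.6 CPM in isolated VTA and 17.1, 16.0 and 10.5 CPM in group-housed VTA; its log2 fold change was 1.70 (SE 0.78) with all libraries and 0.56 without isolated library 3. Camk2a read 116, 119 and 453 CPM in isolated VTA, against 112, 120 and 80.4 CPM in group-housed VTA, with 1.14 (SE 0.65) for all libraries and 0.18 without library 3. In both genes isolated library 3 lay far above the other 5 libraries. Cnksr2 read 79.8, 65.5 and 237 CPM in isolated VTA, against 49.9, 56.6 and 59.2 CPM in group-housed VTA, and its isolated libraries were all higher. Its log2 fold change was 1.21 (SE 0.56) with all libraries and 0.40 (SE 0.11) without isolated library 3. Baiap2 read 48.4, 40.6 and 141 CPM in isolated VTA, against 40.1, 42.7 and 34.5 CPM in group-housed VTA, and its groups overlapped. Its log2 fold change was 0.97 (SE 0.54) with all libraries and 0.19 (SE 0.12) without isolated library 3.

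Library 3 was the highest of the 6 VTA libraries in 30 of the 36 genes (83.3%), against 25.1% of all genes. It was the lowest in 2 genes, Camk2g and Iqsec3 (5.56%, against 23.6% of all genes). Camk2g read 359, 309 and 252 CPM in isolated VTA and 297, 292 and 287 CPM in group-housed VTA. Its log2 fold change was 0.07 (SE 0.12). Iqsec3 had the only estimate below 0 with all libraries (-0.08, SE 0.13). Without library 3, 33 of the 36 estimates were above 0 and their median was 0.159. Without isolated libraries 1 and 3, the libraries highest in choroid plexus markers, 31 were above 0, with a median of 0.10. That fit had isolated library 2 alone on the isolated side.

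Markers of several cell types were also higher in isolated VTA, some of them most in this library. The summed level of the 12 cortical and basolateral glutamatergic markers ran from 316 to 993 CPM in isolated VTA, against 266 to 285 CPM in group-housed VTA, and 11 of the 12 estimates were above 0; at most 1 of them was at 0 in any VTA library. The 10 choroid plexus markers summed to between 465 and 6010 CPM, against 380 to 521 CPM. The 12 striatal projection markers had 10 estimates above 0, with a median of 0.87. The 12 pan-neuronal genes summed to between 7480 and 8470 CPM, against 6580 to 7570 CPM, with all 12 above 0 and a median of 0.14. All 10 myelin genes were above 0, with a median of 0.44 and a summed level of 11700 to 15400 CPM in isolated VTA, against 8170 to 13400 CPM in group-housed VTA. All 8 microglia genes were above 0, with a median of 0.28 and a summed level of 272 to 415 CPM in isolated VTA, against 260 to 313 CPM in group-housed VTA. Of the 10 dopamine neuron markers, 6 were above 0, with a median of 0.09. Their summed level was 1300 to 1660 CPM in isolated VTA, against 998 to 2070 CPM in group-housed VTA. Of the 8 astrocyte genes, 6 were above 0, with a median of 0.07. In each of these marker lists 0 genes were called. The part of these markers in the estimates of the 36 genes was not tested. Of the 68 further postsynaptic genes, 56 were above 0, with a median of 0.22 and 0 called; Cadm2, a cell adhesion gene, had 0.47 (SE 0.08, edgeR adjusted p = 0.236).

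**Figure D4:**
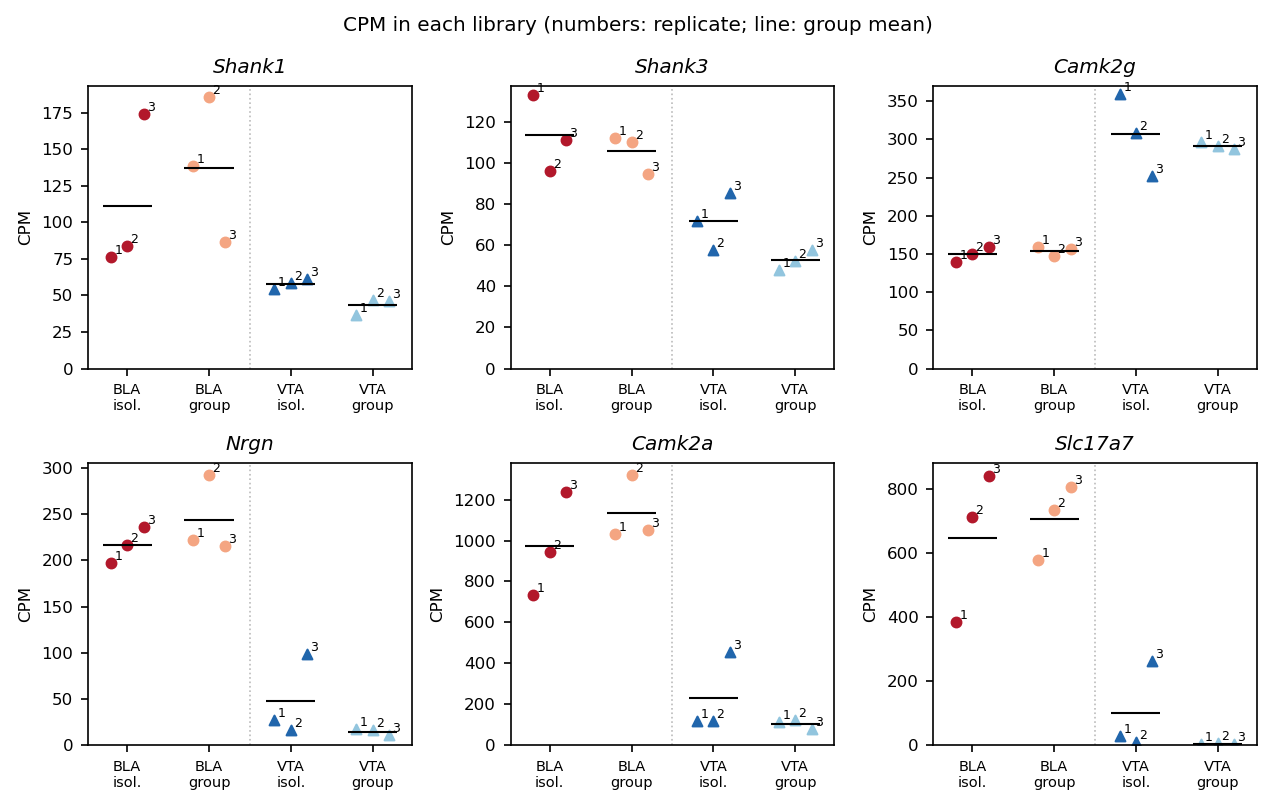
CPM in each library for 5 of the 36 genes and for the marker Slc17a7, with TMM factors over the 6 libraries of a region; points carry the replicate number, bars the group mean, and the dotted line parts the regions. Isolated VTA library 3 is high in Nrgn (98.6 CPM), Camk2a (453 CPM) and Slc17a7 (264 CPM) and low in Camk2g (252 CPM).

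The third comparison sets isolated against group-housed males in BLA. No gene of the 36 was called by edgeR (0 of 36, against 0.0% of the 22110 genes tested), and none had an unadjusted p under 0.05, against 1.99% of all genes; DESeq2 called 0 of the 36 too. Of the 36 estimates, 10 were above 0, against 50.8% of all genes, and the median was -0.02 against 0.003. In 0 of the 36 were the groups apart, against 4.23% of all genes with isolated libraries above and 2.85% with them below.

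Nrgn read 197, 217 and 236 CPM in isolated BLA and 222, 292 and 216 CPM in group-housed BLA, a log2 fold change of -0.17 (SE 0.13, edgeR adjusted p = 1). The 3 BLA libraries of high ribosomal RNA share all lay above the others in Nrgn. Without them, with library 3 the only group-housed one left, its log2 fold change was -0.06. Camk2a read 732, 942 and 1240 CPM in isolated BLA, against 1030, 1320 and 1050 CPM in group-housed BLA, at -0.23 (SE 0.18, adjusted p = 1). Lrrtm2 stood at -0.14 (SE 0.12) and Dlg3 at -0.13 (SE 0.12), both with an adjusted p of 1. The groups overlapped in all of these.

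Isolated library 1 was the lowest of the 6 BLA libraries in 18 of the 36 genes (50%), against 21.6% of all genes, and without it 15 of the 36 estimates were below 0 in place of 26. Group-housed library 2 was the highest in 16 of the 36 (44.4%), against 24% of all genes, and without it 19 estimates were below 0. Isolated library 1 also had the lowest Slc17a7 of BLA, 386 CPM, against 578 to 842 CPM in the other 5, and the highest Drd1, 171 CPM. Of the 12 cortical and basolateral glutamatergic markers 1 estimate was above 0, with a median of -0.21, and of the 12 striatal projection markers all were, with a median of 0.41. Their part in the estimates of the 36 genes in BLA was not tested. Shank1 spread most, at 76.3, 84.0 and 174 CPM in isolated BLA and 139, 186 and 86.9 CPM in group-housed BLA. Its high libraries were the 3 rich in ribosomal RNA reads, which exceeded the other 3 by 1.01 on the log2 scale.

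**Figure D5:**
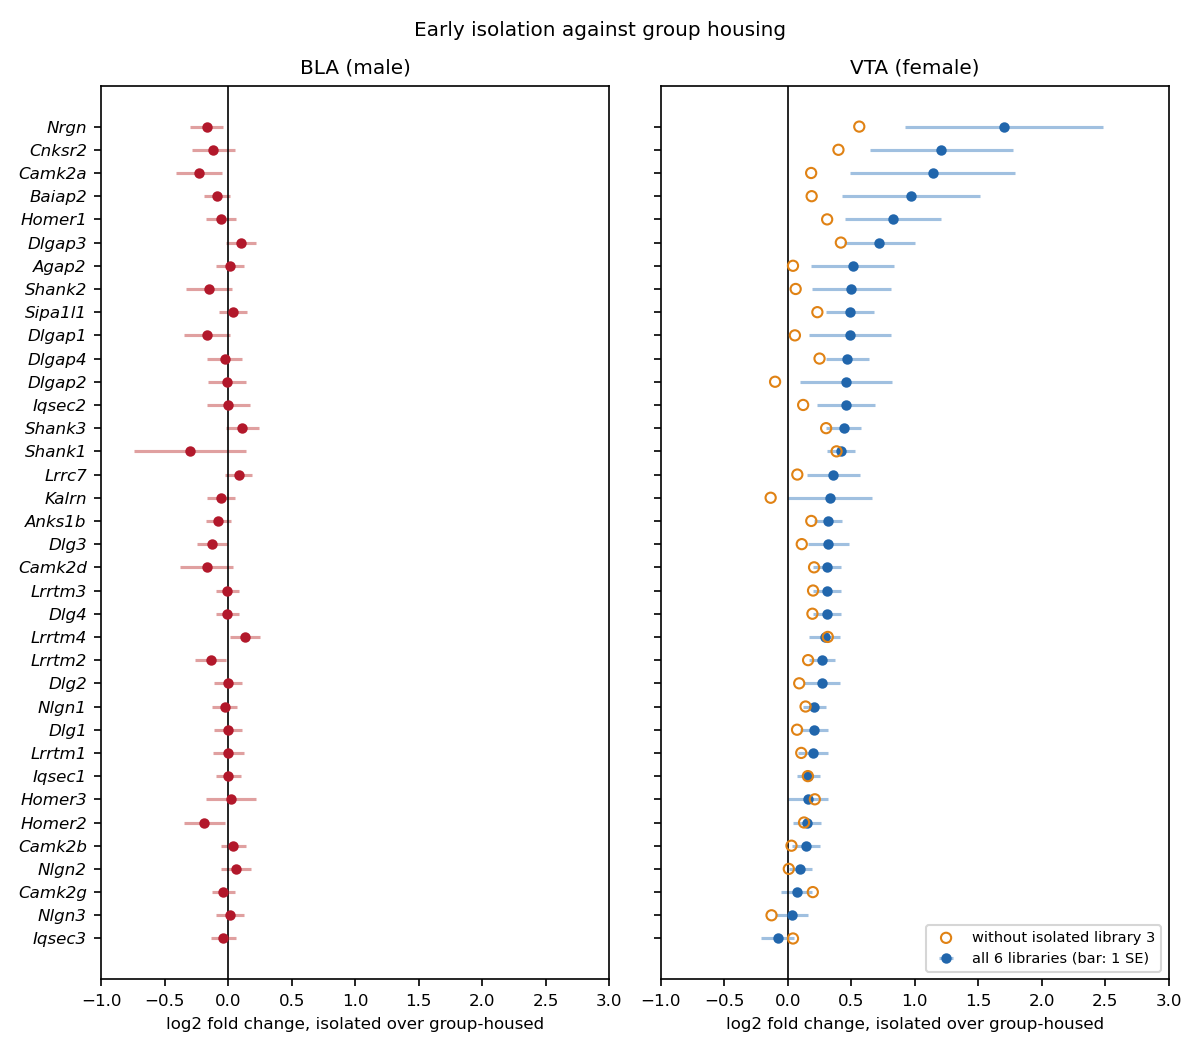
Log2 fold change, isolated over group-housed, of each gene in BLA (left) and VTA (right), with bars of 1 SE; open circles give VTA without isolated library 3. In VTA 35 of 36 estimates lie above 0, in BLA 10, and none passes an adjusted p of 0.05 in either region.

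The last comparison tests whether the 2 responses differ, BLA minus VTA, in 1 fit of all 12 libraries; it shares its libraries with the comparisons above. None of the 36 was called by edgeR (0 of 36, against 0.0% of the 25009 genes tested), and 9 had an unadjusted p under 0.05, against 14.9% of all genes; DESeq2 called 0 of the 36 too. All 36 estimates were below 0, with a median of -0.46 against -0.059 over all genes, of which 44.7% were above 0. Upper-quartile scaling shifted the median of all genes to 0.081, and then 3 of the 36 were above 0, with a median of -0.307. The smallest p belonged to Anks1b (-0.46, SE 0.16, edgeR adjusted p = 0.303), Lrrtm2 (-0.47, SE 0.17, adjusted p = 0.303), Dlg4 (-0.39, SE 0.15) and Lrrtm3 (-0.38, SE 0.15). Without isolated VTA library 3 the median was -0.25.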

How the data were processed

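Per the labels' protocols, punches were extracted with Trizol, and 1 ug of RNA per library went through a stranded kit with ribosomal RNA removal. The authors deposited raw read counts per gene. HTSeq, TopHat2 and cutadapt are the tools listed in the submitters' processing notes, and mm10 the build. Versions, annotation and strand setting: not given in the sources used here. The per-sample tables were used; the joint table had other values at 2 entries, neither of them a member.

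The filter on low counts was edgeR's filterByExpr (10 counts, 15 in total). Libraries were scaled with TMM factors, and genes were tested with edgeR 4.0.16 (quasi-likelihood F test, robust) in R 4.3.3, with Benjamini-Hochberg adjustment over all genes at 0.05. Isolation was tested on the 6 libraries of a region, and the region contrast and the difference of responses on all 12. CPM uses TMM factors over the libraries of a region; CPM per kb uses factors over all 12 libraries and exon lengths of GENCODE. CPM of Slc6a3 is also scaled over all 12. Log2 fold changes are isolated over group-housed, or BLA over VTA. The SE of an edgeR log2 fold change is its absolute value divided by the square root of its F statistic. DESeq2 1.42.0, other scalings and left-out libraries were alternatives. The code was tested on simulated data.

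The members and lists were chosen with earlier results of these data known. Full statistics are given for the called genes, at most 12 by smallest p, or for 4 by smallest p where fewer were called. Statistics beyond that rule were added after values were seen, as were the markers Slc6a3, Slc17a7, Ttr and Drd1. Between regions these statistics cover Baiap2, Camk2a, Camk2g, Cnksr2, Dlg1, Homer1, Homer3, Iqsec3, Kalrn, Lrrtm2, Nrgn, Shank1, Shank2 and the other GKAP genes. In VTA these statistics cover Baiap2, Camk2a, Camk2g, Cnksr2, Dlgap4, Iqsec3, Lrrtm3 and Nrgn, and in BLA Shank1.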

Additional observations from a re-analysis of the deposited data

How the results depend on the processing

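No called value turned its direction under the alternatives run. The count of genes called in VTA was 0 of 36 by edgeR and 1 by DESeq2, and ran from 0 to 3 when each library was left out, the 3 without isolated library 2. Over all genes in VTA, 1 gene was called by the edgeR test, 486 by DESeq2, 1200 without isolated library 2 and 17 with no filter on low counts. In BLA 0 genes were called, against 6 by DESeq2, 8 with no filter and 4 without isolated library 2. For the difference of responses 0 genes were called, against 138 by DESeq2, 487 without isolated VTA library 2, and 1 each with no filter, with the block or without isolated VTA library 1. The number of BLA estimates below 0 ran from 15 to 28 when each library was left out, and their median from -0.089 to 0.013. The median of the 36 genes in the difference ran from -0.553 to -0.25 when each library was left out. It was -0.154 without the 2 VTA libraries rich in choroid plexus markers, where library 2 alone stood for isolated VTA. The cause was not tested.

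Between regions, 34 to 36 of the 36 genes were called when each library was left out, and 34 in the group-housed libraries alone, an alternative chosen after seeing the data. With all 12 libraries 47.7% of all genes were called, and the shares of all genes in these other settings are not given here. Homer3 also lost its call with no filter and with the block. Iqsec3 gained one with no filter, with upper-quartile factors and with ribosomal RNA loci left out. Without the 2 choroid-rich VTA libraries, which left library 2 alone in isolated VTA, Homer3 read -0.34 and Iqsec3 -0.27. With raw counts in place of counts per kb, 8 family shares moved, among them that of Camk2g (BLA minus VTA -21.5 percentage points in place of -30.0).

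Deviations of same-numbered libraries from their group means correlated at -0.058 to 0.172, and those of differently numbered libraries at -0.105 to 0.114. With 3 libraries in each group, these values cannot decide whether the replicate numbers pair the libraries. With a replicate block, 0 of the 36 genes were called in BLA, 0 in VTA and 0 in the difference, and 34 between regions. Without the block, 47.7% of all genes were called between regions, and the share with the block is not given here. The SE of a log2 fold change ran from 0.09 to 0.78 over the 36 genes in VTA, which limits what these libraries resolve.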
